A study of Mus musculus with 6 samples.

Results

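The genes of the Wnt pathway that encode ligands, receptors, co-receptors, secreted inhibitors and the cytoplasmic core were examined in the hippocampus of mice. The members were the rows of the expression table whose gene symbol belonged to the Wnt, Fzd, Dkk, Sfrp, Axin, Dvl, Rspo, Ror or Gsk3 families, together with Dkkl1, Frzb, Lrp5, Lrp6, Wif1, Ctnnb1, Apc, Porcn, Znrf3 and Rnf43, which gave 57 of the 16060 rows. Hippocampal RNA of 3 control and 3 methamphetamine (MA) mice was sequenced to find genes that accompany anxiety-like behavior after repeated MA. All were adult male C57BL/6 mice. Each library was titled by group and replicate number and was taken here as 1 mouse. By the study's methods, control mice received saline by intraperitoneal injection, and MA mice were given weekly escalating doses, which were 5 mg/kg in week 1, 10 mg/kg in week 2 and 15 mg/kg in week 3, before behavioral tests and tissue collection. The direction of every difference rests on the sample labels, which are open to doubt, and the groups are therefore called libraries labelled control and libraries labelled MA. Arc, Fos, Egr1 and Nr4a1, genes induced by neuronal activity and known to be induced by acute stimulants, were lower in every library labelled MA than in every control library. Arc had log2 values of 6.67, 6.23 and 6.22 in control replicates 1, 2 and 3 and 4.77, 4.40 and 4.54 in MA replicates 1, 2 and 3. The log2 fold changes of Arc, Fos, Egr1 and Nr4a1 were -1.80, -1.61, -1.46 and -1.45 (limma adjusted p = 0.0181, 0.0315, 0.0181 and 0.0244). The study reports these genes as upregulated by MA in its RNA-seq data and by qPCR, the opposite of their direction here. Its supplementary list, headed as control against MA-treated mice, does not itself state which way its fold changes run. By immunostaining the study also reports fewer neurons, higher GFAP and more microglia (Iba-1) after MA. Of the 10 neuron markers described below, 9 had a lower mean in the libraries labelled MA, as did 7025 of all 13321 tested genes. Gfap and Aif1, the gene of Iba-1, also had lower means there, with overlapping groups. Their log2 fold changes were -0.11 and -0.43 (limma adjusted p = 0.725 and 0.582). These reports and values do not settle whether the labels are right. If the labels of the 2 groups were exchanged in the table, every direction given below would turn.

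Wnt ligands are secreted lipid-modified glycoproteins that bind Frizzled receptors, and with the co-receptors Lrp5 and Lrp6 they keep β-catenin from being destroyed by a complex of Axin, Apc and Gsk3. Other ligands act through Ror receptors and planar cell polarity or calcium signals without β-catenin, and secreted inhibitors hold ligands or co-receptors back. In the adult hippocampus the pathway is known for its part in dentate neurogenesis, dendrite growth and the formation and strength of synapses.

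The table held values on a log2 scale, read here as log2(RPKM + 1), which the authors had already brought to a common distribution. An RPKM-scale level below is 2 to the power of the value, minus 1, which is on the scale of reads per unit of gene length and of library size. A fold change below is a difference of log2(RPKM + 1), which understates the difference of genes of low level. With pseudocounts of 0.1 or 0.01 in place of 1, the log2 fold change of 16 of the 46 tested Wnt members was over 1.5 times as large with the same sign, and that of Wnt2b, near 0, turned its sign. The number of reads per library is not known. A level in bulk RNA can be lower through fewer cells of a type or through less RNA per cell, and these cannot be told apart.

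The libraries labelled MA did not resemble each other equally. Over all tested genes, the mean correlation of a library with the others of its group was 0.978 for MA replicate 3, against 0.984 and 0.985 for MA replicates 1 and 2 and 0.992, 0.993 and 0.992 for control replicates 1, 2 and 3. Of the 46 Wnt members tested, 9 lay above every control library in MA replicates 1 and 2 and below every control library in MA replicate 3 (Apc, Ctnnb1, Dvl3, Fzd1, Fzd3, Fzd4, Fzd6, Gsk3b and Znrf3), which was 19.6% of the members against 8.80% of all 13288 tested genes with a single row. The reverse order was found in 1 member, Axin2, or 2.17%, against 6.22% of all. Longer genes tended to be lower in MA replicate 3 than in the mean of MA replicates 1 and 2, with a Spearman correlation across genes of -0.237 over the 46 members and -0.358 over 13269 genes with an annotated exonic length. These are descriptions of 3 libraries, and genes of a library are not independent replicates.

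Markers of the tissue and of its neighbours were also read in each library. All 10 markers of hippocampal neurons were detected, and their summed RPKM-scale level was 348, 306 and 264 in control replicates 1, 2 and 3 and 242, 280.1 and 273 in MA replicates 1, 2 and 3, with Neurod6 the most abundant. Of these 10, 9 had a lower mean in the libraries labelled MA, and 4 did not overlap between groups, with Neurod6, Pou3f1 and Wfs1 lower and Grik4 higher, all 4 with an unadjusted p under 0.05 and none with an adjusted p under 0.05 by limma. In contrast, all 14 markers of choroid plexus epithelium were higher in every library labelled MA than in every control library, and 6 of them passed an adjusted p under 0.05 by limma. Their summed level was 71.9, 181 and 427 in the control libraries and 1797, 2339 and 5122 in the libraries labelled MA. The most abundant, the thyroid hormone carrier gene Ttr, had log2 values of 5.87, 7.39 and 8.68 against 10.77, 11.14 and 12.30, and control replicate 3 lay highest among the controls. Ttr made up most of these sums, at a mean of 211 RPKM in controls and 3010.5 in libraries labelled MA. Its value in MA replicate 3 was the highest value of the common distribution, so a higher level could not have been shown. All 5 blood markers (Alas2, Hba-a1, Hba-a2, Hbb-bs and Hbb-bt) were likewise higher, 3 of them under an adjusted p of 0.05 by limma (Hba-a1, Hba-a2 and Hbb-bs), with sums of 1599, 2024 and 1911 against 4378, 3319 and 3849, led by Hbb-bs. The 14 markers of meninges and fibroblasts, led by Mgp, summed to 86.8, 93.5 and 119 against 157, 168 and 193, with 4 of them not overlapping between groups (Dcn, Igf2, Mgp and Slc13a4) and Slc13a4 alone under an adjusted p of 0.05 by limma. The 12 thalamic markers, led by Prkcd, summed to 40.3, 36.2 and 47.9 against 92.5, 110.2 and 35.0, so MA replicates 1 and 2 were high and MA replicate 3 was lowest of all. For the remaining lists the sums in the order control replicates then MA replicates were 168, 193 and 187 and 233, 204 and 186 for endothelium, led by Ly6c1. Astrocyte markers, led by Aldoc, summed to 1053, 1069 and 1145 and 1278, 1177 and 933. Oligodendrocyte markers, led by Mbp, summed to 3307, 3414 and 3077 and 3381, 2855 and 3573. These lists of 10 genes each overlapped between groups in their sums. Microglial markers, led by C1qa, summed to 248, 268 and 258 and 261, 261 and 255. Ependymal markers, led by Rarres2, summed to 68.2, 42.9 and 41.1 and 51.3, 68.1 and 97.6. Interneuron markers, led by Cck, summed to 2202, 2314 and 2006 and 1844, 1816 and 2044, and all 3 lists were detected in all 6 libraries. By mean, 9 of 10 endothelial and 9 of 10 ependymal markers were higher in the libraries labelled MA. Of 10 oligodendrocyte markers 9 were lower, with Mbp alone higher. Of 10 markers in each list, 7 astrocyte, 6 microglial and 8 interneuron markers were lower. Outside the neuron, choroid plexus, blood and meningeal lists, the tested markers whose groups did not overlap were Lhx9 of the thalamus, Cldn5 of endothelium, Fgfr3 of astrocytes and Hdc and Rsph1 of ependyma, all higher in the libraries labelled MA, and Aqp4 of astrocytes and Siglech and Tmem119 of microglia, all lower. None of these passed an adjusted p under 0.05 by limma, and the oligodendrocyte and interneuron lists held no such marker. No marker of the 11 lists was listed at 0 in every library. The part of any of these cell types in the Wnt values was not tested.

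**Figure D1:**
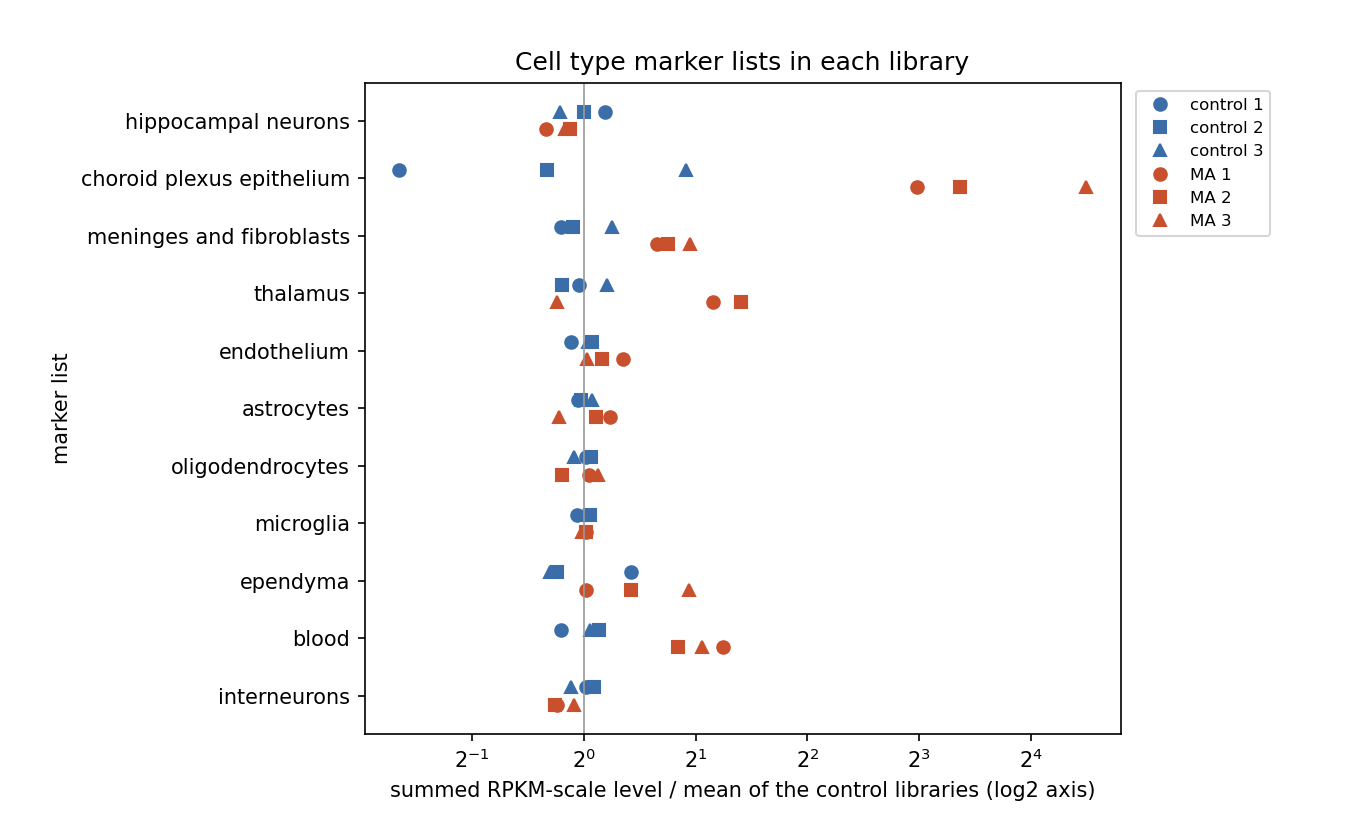
Summed RPKM-scale level of 11 marker lists in each library, divided by the mean of the control libraries (log2 axis), with blue points for control and orange points for MA libraries and a marker shape per replicate. Choroid plexus sums, which were mostly Ttr, ran from 71.9 in control replicate 1 to 5122 in MA replicate 3, and the thalamic sums were high in MA replicates 1 and 2 alone.

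No Wnt member passed an adjusted p under 0.05 by limma (0 of 46 tested), where 35 of all 13321 tested genes (0.263%) did. At an unadjusted p under 0.05, 9 of the 46 members (19.6%) were counted, against 1392 of all tested genes (10.4%). Of the 9, 5 were higher in the libraries labelled MA (Sfrp5, Wnt5a, Wnt7b, Fzd7 and Wnt3), where 4.99% of all tested genes were counted as higher, and 4 were lower (Wnt11, Wnt2, Wnt7a and Dkk3), where 5.46% of all were. The groups did not overlap for 10 of 46 members, or 21.7%, against 17.5% of all tested genes. Of these, 5 were higher in every library labelled MA (7.32% of all tested genes) and 5 were lower (10.2% of all), the added member being Ror1. Of these 10, Ror1, Sfrp5 and Wnt11 reached 0.5 RPKM in all 3 libraries of the group in which they were higher. In the other group they reached it in 0, 1 and 2 libraries. None of these would have met the 3-library filter without the higher group. Ror1 alone reached 0.5 RPKM in 1 group only. Among the 37 members that reached it in all 6 libraries, a limit chosen after the data were seen, 7 did not overlap (18.9%, 4 higher and 3 lower), against 17.4% of 12535 genes. Tested on their own, 8 of the 37 (21.6%) had an unadjusted p under 0.05, against 10.3% of those genes, with Wnt5b added and Sfrp5 and Wnt11 not tested. The median log2 fold change of the tested members was 0.055, against -0.01 for all tested genes, with a range of 0.032 to 0.098 for the members when 1 library was left out. Of the members, 30 had a higher mean in the libraries labelled MA and 16 a lower one, against 6296 and 7025 of all tested genes. Every member whose groups did not overlap had an exact two-sided permutation p of 0.1, the smallest that 3 libraries against 3 can give. Without MA replicate 3, the count at an unadjusted p under 0.05 was 18 of 46 (39.1%, against 23.3% of all tested genes), with 14 higher and 4 lower, all 9 members above among them. The members added were Apc, Dvl3, Fzd1, Fzd3, Fzd4, Gsk3b, Rspo3, Sfrp2 and Wnt9a, and limma's adjusted p of Wnt11 alone then came under 0.05, at 0.0443. This was 1 of 46 members (2.17%), close to the share of all tested genes in that fit, 257 of 13321 (1.93%). When 1 library at a time was left out, 17 members took the other sign of log2 fold change at least once (Axin1, Axin2, Ctnnb1, Dkkl1, Dvl1, Dvl2, Fzd2, Fzd6, Fzd8, Fzd9, Gsk3b, Porcn, Rnf43, Wif1, Wnt10a, Wnt2b and Wnt6). A further 17 kept their sign but moved by over 1.5 times (Apc, Dvl3, Frzb, Fzd1, Fzd3, Fzd4, Gsk3a, Lrp5, Lrp6, Rspo1, Rspo2, Rspo3, Sfrp1, Sfrp2, Sfrp4, Wnt9a and Znrf3). The remaining 12 were the 10 members whose groups did not overlap together with Wnt4 and Wnt5b. Leaving out a library could not turn the sign of those 10, since their groups were separate.

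**Figure D2:**
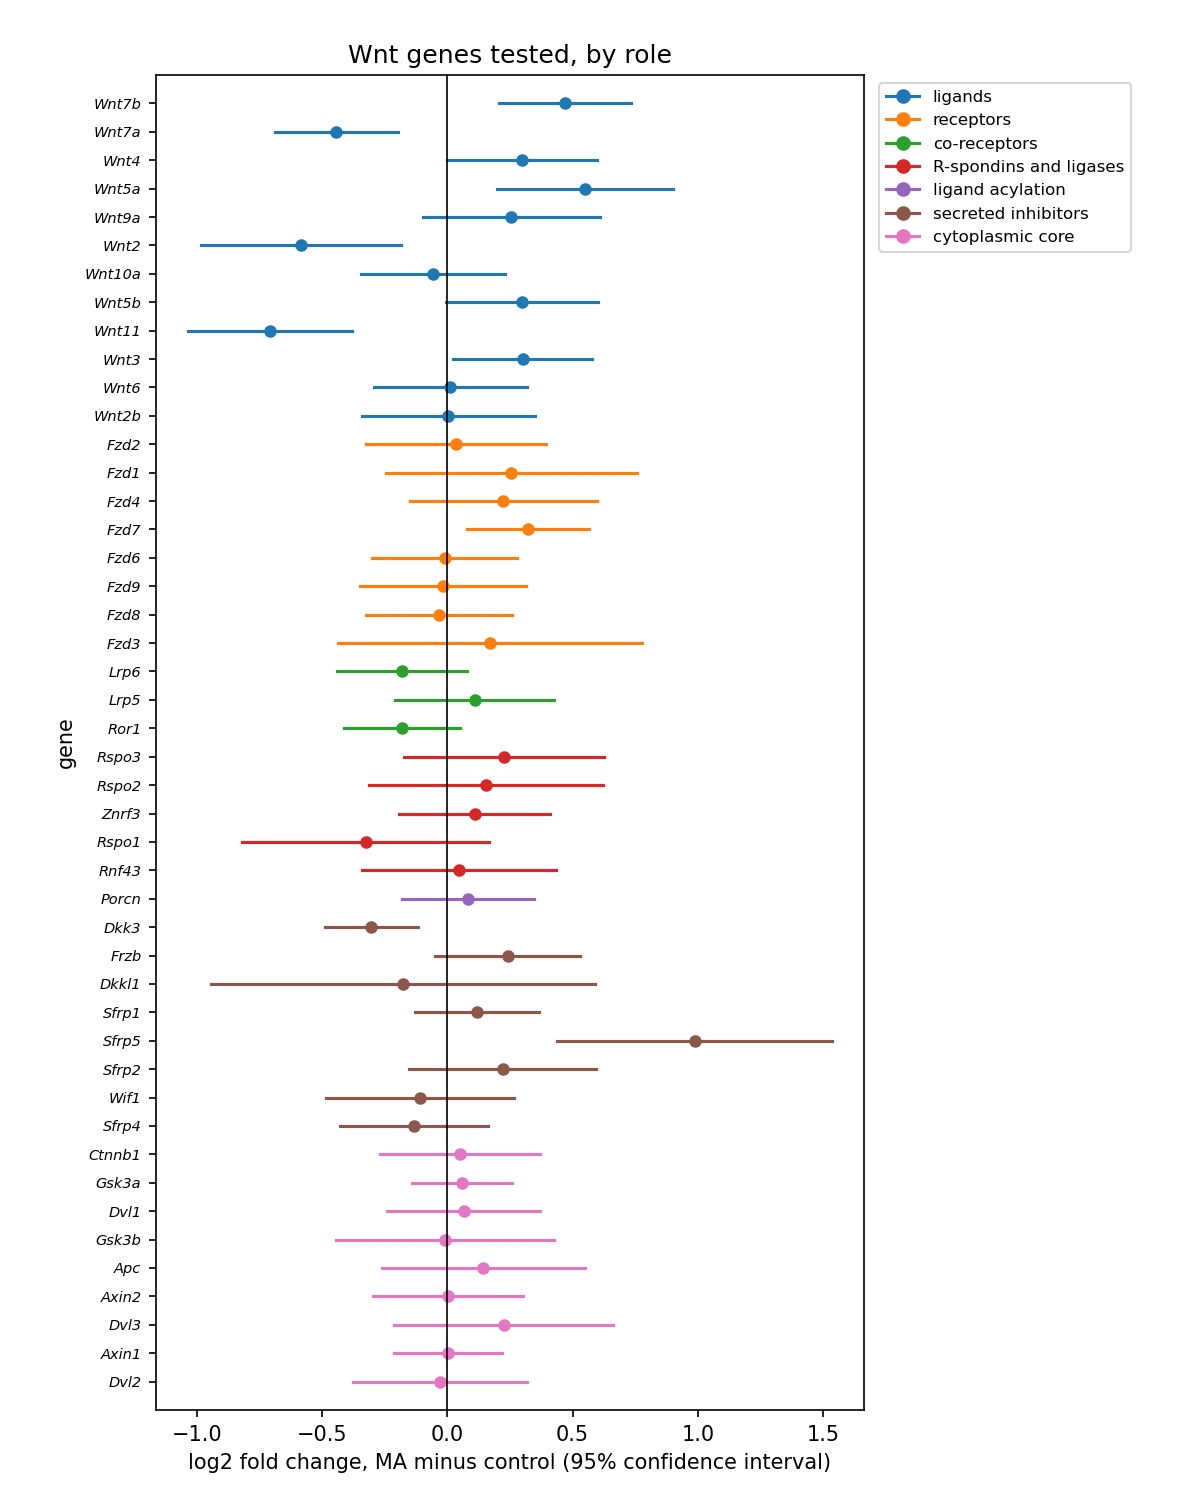
Log2 fold change of each of the 46 tested Wnt members, MA minus control, with its 95% confidence interval from limma (n = 3 per group), coloured by role. The points run from -0.71 for Wnt11 to 0.99 for Sfrp5, and the 9 members whose interval lies wholly to 1 side of 0 are the 9 counted at an unadjusted p under 0.05.

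Among the 18 Wnt ligands, 12 were tested and 6 of them (50%) did not overlap between groups, against 17.5% of all tested genes. In the libraries labelled MA, 3 of these were higher (7.32% of all tested genes) and 3 lower (10.2% of all). The RPKM-scale level summed over all 18 ligands was 31.2, 33.6 and 34.6 in control replicates 1, 2 and 3 and 35.9, 37.4 and 37.4 in MA replicates 1, 2 and 3, so the sum was slightly higher in each library labelled MA. Wnt7b (ENSMUSG00000022382, chr15:85535437-85582473, minus strand), a ligand that acts on brain endothelium and on dendrite growth, was the most abundant ligand, at 9.38 ± 1.20 RPKM in controls and 13.3 ± 0.766 in libraries labelled MA (mean ± SD, n = 3). Its log2 values were 3.17, 3.46 and 3.47 in control replicates 1, 2 and 3 and 3.79, 3.80 and 3.92 in MA replicates 1, 2 and 3. Every library labelled MA was above every control library, with control replicate 1 the lowest of all. Wnt7b had a log2 fold change of 0.47 (SE 0.11), with an adjusted p of 0.223 by limma.

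Its close relative Wnt7a (ENSMUSG00000030093, chr6:91363981-91411363, minus strand), which promotes the assembly of presynaptic terminals, went the opposite way. Wnt7a had log2 values of 2.82, 2.76 and 2.96 in the control libraries and 2.33, 2.52 and 2.37 in the libraries labelled MA. All MA-labelled values lay below all control values, and the groups were separate. For Wnt7a the log2 fold change was -0.44 (SE 0.10; limma adjusted p = 0.219), and the RPKM-scale level was 6.21 ± 0.510 against 4.31 ± 0.378. After these values had been seen, the log2 difference of Wnt7b minus Wnt7a was formed within each library. This difference was 0.35, 0.70 and 0.52 in the control libraries and 1.46, 1.28 and 1.56 in the libraries labelled MA. Wnt7b exceeded Wnt7a in all 6 libraries. No test of the difference is given, since its separation between groups follows from the opposite directions of the 2 genes. Their summed RPKM-scale level was 15.6 ± 1.43 against 17.6 ± 0.757 (SD, n = 3; exact permutation p = 0.2), with overlapping libraries. As a share of all 18 ligands, the pair made up 45.0, 47.1 and 48.8% in the control libraries and 46.9, 47.1 and 49.1% in the libraries labelled MA.

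Wnt11 (ENSMUSG00000015957, chr7:98835112-98855195, plus strand), a ligand known for β-catenin-independent signaling in cell movements of the embryo, had the smallest adjusted p of all members. Its log2 values were 1.62, 1.34 and 1.37 in the control libraries against 0.56, 0.73 and 0.92 in the libraries labelled MA. Each library labelled MA was below each control library, and MA replicate 1 was lowest and under the 0.5 RPKM of the filter. Its fold change on the log2 scale was -0.71 (SE 0.14; 95% confidence interval -1.03 to -0.38), with an adjusted p of 0.147 by limma. With pseudocounts of 0.1 and 0.01, the Wnt11 value was -1.27 and -1.38, and the mean level was 1.73 ± 0.299 RPKM in controls and 0.675 ± 0.214 in libraries labelled MA.

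Wnt2 (ENSMUSG00000010797, chr6:17988940-18030585, minus strand), a ligand linked to activity-dependent dendrite growth in hippocampal neurons, was at 1.97, 1.93 and 1.52 on the log2 scale in the control libraries and 1.00, 1.22 and 1.44 in the libraries labelled MA. The groups were separate, but control replicate 3 and MA replicate 3 lay close together. Wnt2 had a log2 fold change of -0.58 (SE 0.17; -0.86 and -0.91 with pseudocounts of 0.1 and 0.01), and limma's adjusted p was 0.308.

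Wnt5a (ENSMUSG00000021994, chr14:28504750-28527448, plus strand), the best known ligand of Ror receptors, acts at hippocampal synapses. Wnt5a log2 values were 1.27, 1.47 and 1.54 in control libraries and 1.88, 1.81 and 2.26 in libraries labelled MA. MA replicate 3 was highest and control replicate 1 lowest, with no overlap. This gave a log2 fold change of 0.55 (SE 0.15; limma adjusted p = 0.277). Wnt3 (ENSMUSG00000000125, chr11:103774150-103817957, plus strand), a ligand made by hippocampal astrocytes that promotes neurogenesis, had log2 values of 0.96, 0.86 and 0.95 against 1.20, 1.39 and 1.09. The control libraries were tightly grouped and all lay below the libraries labelled MA. Its log2 fold change was 0.30 (SE 0.12; 0.52 and 0.57 with pseudocounts of 0.1 and 0.01), with a limma adjusted p of 0.442.

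The 6 other tested ligands overlapped between groups. Wnt4, Wnt5b and Wnt9a had higher means in the libraries labelled MA, with log2 fold changes of 0.30, 0.30 and 0.26 and limma adjusted p-values of 0.478, 0.482 and 0.619. Wnt10a, Wnt6 and Wnt2b stood at -0.055, 0.012 and 0.0043. The remaining 6 ligands, Wnt1, Wnt3a, Wnt8b, Wnt9b, Wnt10b and Wnt16, did not reach 0.5 RPKM in 3 libraries and were not tested. Their mean levels over the 6 libraries were 0.0334, 0.0320, 0.0272, 0.207, 0.203 and 0.370 RPKM.

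**Figure D3:**
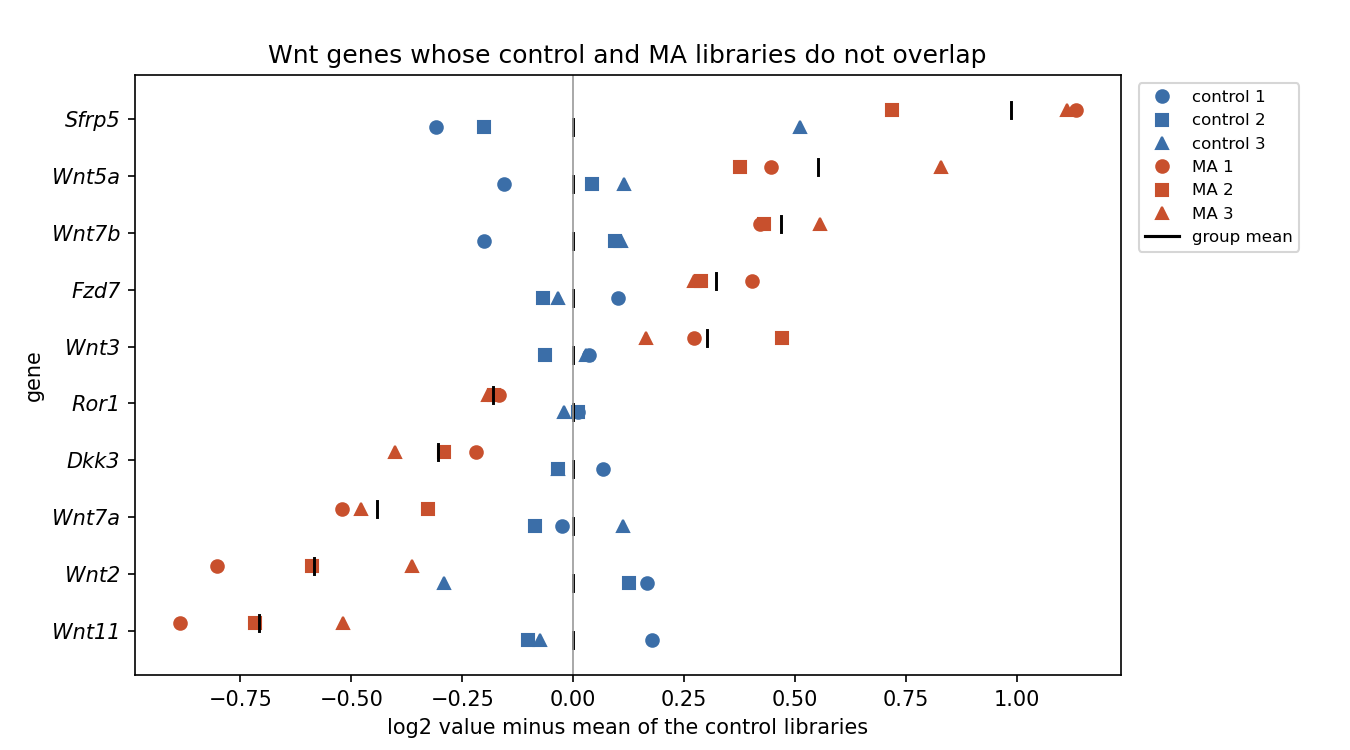
Log2 value of each library minus the mean of the control libraries for the 10 Wnt members whose groups did not overlap, ordered by fold change, with blue points for control and orange points for MA libraries, a marker shape per replicate and black bars for group means. Sfrp5, Wnt5a, Wnt7b, Fzd7 and Wnt3 lie to the right of all controls in every library labelled MA, and Wnt11, Wnt2, Wnt7a, Dkk3 and Ror1 lie to the left.

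Of the 10 Frizzled receptors, the cell-surface proteins that bind Wnts, 8 were tested. Their summed RPKM-scale level was 14.1, 14.4 and 15.4 in the control libraries and 20.0, 18.3 and 12.4 in the libraries labelled MA, high in MA replicates 1 and 2 and lowest in MA replicate 3. Fzd2 was the most abundant, with log2 values of 2.06, 2.12 and 1.88 in control libraries and 2.30, 2.09 and 1.78 in libraries labelled MA. These overlapped, with a log2 fold change of 0.036 (SE 0.15; limma adjusted p = 0.958). Fzd7 (ENSMUSG00000041075, chr1:59482424-59486955, plus strand), a receptor that works with both β-catenin-dependent and other branches, had log2 values of 1.53, 1.36 and 1.39 against 1.83, 1.72 and 1.70. Every library labelled MA was above the highest control, which was replicate 1. On the log2 scale, the fold change was 0.32 (SE 0.10), with an adjusted p of 0.354 by limma. Fzd1, Fzd3 and Fzd4 had means above the controls but low values in MA replicate 3 of 1.36, 0.66 and 1.38, below every control library. Their log2 fold changes were 0.25, 0.17 and 0.22, and with 1 library left out in turn they ranged from 0.10 to 0.50, from 0.0078 to 0.45 and from 0.11 to 0.39, highest without MA replicate 3. Fzd6, Fzd8 and Fzd9 had log2 fold changes of -0.011, -0.033 and -0.017. The untested receptors Fzd5 and Fzd10 had mean levels of 0.197 and 0.244 RPKM.

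Among the 4 co-receptor genes, Lrp6, which pairs with Frizzled to pass on the β-catenin signal, was the most abundant, at 8.70 ± 0.981 RPKM in controls and 7.54 ± 0.570 in libraries labelled MA. Lrp6 log2 values were 3.30, 3.11 and 3.40 against 3.20, 3.04 and 3.04. The groups overlapped, since MA replicate 1 exceeded control replicate 2. The log2 fold change was -0.18 (SE 0.11; limma adjusted p = 0.632), and its homologue Lrp5 stood at 0.11 (0.843). Ror1 (ENSMUSG00000035305, chr4:100095791-100444765, plus strand), a receptor tyrosine kinase that binds Wnt5a, was near the limit of the low-value filter. Its log2 values were 0.71, 0.71 and 0.67 in the control libraries and 0.53, 0.52 and 0.50 in the libraries labelled MA. All controls lay above all MA-labelled libraries, yet Ror1 passed the filter through the control libraries alone, so a difference was built into its being tested. For Ror1 the log2 fold change was -0.18 (SE 0.099; -0.44 and -0.52 with pseudocounts of 0.1 and 0.01), and limma's adjusted p was 0.592. Ror2, the other receptor of this kind, was not tested, at 0.248 RPKM on average.

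The R-spondins strengthen Wnt signals by drawing the ubiquitin ligases Znrf3 and Rnf43 away from Frizzled receptors, and 5 of these 6 genes were tested. Rspo3 was the most abundant, with log2 values of 2.35, 2.12 and 2.47 in control libraries and 2.75, 2.68 and 2.20 in libraries labelled MA. MA replicates 1 and 2 were above all controls and MA replicate 3 was within them. The log2 fold change was 0.23 (SE 0.17; limma adjusted p = 0.707), and with 1 library left out it ranged from 0.12 without MA replicate 1 to 0.40 without MA replicate 3. Rspo2 and Rspo1 stood at 0.15 and -0.33, Znrf3 at 0.11 and Rnf43 at 0.048, and all 4 overlapped between groups. With 1 library left out, these ranged from 0.0031 to 0.33, from -0.46 to -0.13, from 0.012 to 0.21 and from -0.096 to 0.22. Rspo4 averaged 0.0231 RPKM and was not tested. Porcn, the acyltransferase that attaches the lipid that ligands need for secretion, had log2 values of 5.19, 5.17 and 5.06 against 5.08, 5.15 and 5.45. MA replicate 3 was the highest, and the other libraries labelled MA lay within the controls. Porcn had a log2 fold change of 0.082 (SE 0.11), with a limma adjusted p of 0.859.

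The 9 secreted inhibitors were grouped by gene name, and whether Dkk3 or Dkkl1 inhibits Wnt signals was not measured here. Of the 9, 8 were tested, and Dkk3 made up most of their summed level. Dkk3 (ENSMUSG00000030772, chr7:112116017-112159057, minus strand), a divergent member of the Dickkopf family that is abundant in hippocampal neurons, made up 90.9, 89.8 and 88.0% of their summed RPKM-scale level in the control libraries and 87.1, 84.9 and 84.2% in the libraries labelled MA. Its own level was 135 ± 5.56 RPKM in controls and 109 ± 7.04 in libraries labelled MA (SD, n = 3). Dkk3 log2 values were 7.15, 7.05 and 7.05 against 6.87, 6.80 and 6.68. Each library labelled MA was below each control library. For Dkk3 the log2 fold change was -0.30 (SE 0.08), and the adjusted p was 0.258 by limma.

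Sfrp5 (ENSMUSG00000018822, chr19:42197971-42202252, minus strand), a secreted Frizzled-related protein that captures Wnt ligands, had the largest fold change of the 46 members tested. It reached 0.5 RPKM in 1 control library and in all 3 libraries labelled MA. Without the group in which it was higher, it would not have met the filter. Its log2 values were 0.21, 0.32 and 1.03 in control libraries and 1.65, 1.24 and 1.63 in libraries labelled MA. Every library labelled MA exceeded every control, and control replicate 3 lay well above the other controls. The log2 fold change was 0.99 (SE 0.23; 95% confidence interval 0.44 to 1.53), with an adjusted p of 0.219 by limma. At pseudocounts of 0.1 and 0.01 it was 2.05 and 2.37, over 2 times as large, and the mean level was 0.482 ± 0.488 RPKM in controls and 1.86 ± 0.440 in libraries labelled MA. The choroid plexus and blood markers were higher in the same libraries, and their part in the Sfrp5 values was not tested. Frzb, the next most abundant inhibitor, averaged 10.4 RPKM and had a log2 fold change of 0.24, with overlapping groups (limma adjusted p = 0.563). Sfrp1, Sfrp2 and Sfrp4, of the same family as Sfrp5, stood at 0.12, 0.22 and -0.13. Wif1, which binds ligands, and Dkkl1 stood at -0.11 and -0.18, and the Dkkl1 control libraries ranged from 1.11 to 2.45. With 1 library left out, Wif1 ranged from -0.23 to 0.032 and Dkkl1 from -0.53 to 0.14, both above 0 without control replicate 3. Dkk2, an inhibitor of Lrp5 and Lrp6, averaged 0.181 RPKM and was not tested.

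As for the receptors, the summed RPKM-scale level of the cytoplasmic core was above all controls in MA replicates 1 and 2 and below them in MA replicate 3, at 296, 289 and 317 in control libraries and 334, 329.8 and 281 in libraries labelled MA. All 9 genes of the core were tested, and 0 were counted at an unadjusted p under 0.05 by limma, where 10.4% of all tested genes were, with an adjusted p of at least 0.736. Ctnnb1, which encodes β-catenin, had the highest mean level of all members over the 6 libraries (126 RPKM, against 122 for Dkk3), at 124 ± 11.6 RPKM in controls, where Dkk3 was higher, and 129 ± 21.2 in libraries labelled MA. Its log2 values were 6.96, 6.82 and 7.09 against 7.15, 7.15 and 6.72. MA replicates 1 and 2 were highest and MA replicate 3 lowest, so the groups overlapped. The log2 fold change was 0.05 (SE 0.14; limma adjusted p = 0.937), with a range of -0.022 to 0.19 when 1 library was left out. Gsk3b, the kinase that marks β-catenin for destruction, had log2 values of 4.0, 4.05 and 4.16 in control libraries and 4.30, 4.28 and 3.61 in libraries labelled MA. As for Ctnnb1, MA replicates 1 and 2 were above all controls and MA replicate 3 below them. The log2 fold change was -0.0085 (SE 0.19; limma adjusted p = 0.994), and with 1 library left out it ranged from -0.13 without MA replicate 1 to 0.22 without MA replicate 3. Axin2, a scaffold of the destruction complex that is itself a target of β-catenin, had log2 values of 3.18, 3.13 and 3.36 against 3.11, 3.11 and 3.46. MA replicates 1 and 2 were below all controls and MA replicate 3 above them. Its log2 fold change was 0.003 (SE 0.13; limma adjusted p = 0.997), with a range of -0.11 to 0.071 when 1 library was left out. The paralogous kinase Gsk3a and the scaffold Axin1 stood at 0.06 and 0.0015. The Dishevelled genes Dvl1, Dvl2 and Dvl3, which pass the signal on from Frizzled, stood at 0.065, -0.028 and 0.22. Apc, the destruction complex scaffold, stood at 0.14, with a value of 3.49 in MA replicate 3 against 3.77, 3.74 and 3.78 in the control libraries. With 1 library left out in turn, Apc ranged from 0.016 to 0.35 and Dvl3 from 0.091 to 0.45, both highest without MA replicate 3.

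Exons of 12 of the 57 members shared bases with a gene on the other strand in GENCODE M21. These included Wnt7b with the antisense gene AU022754 (324 bases), Wnt5a with Gm2670 (358 bases) and Wnt11 with the pseudogene Gm8398 (364 bases). Of the core genes, Ctnnb1 shared 759 bases with Ulk4 and Dvl2 shared 1151 bases with Acadvl. No source states that counting used strand, so reads from these pairs cannot be told apart. By position, 8 ligand genes formed 4 neighbouring pairs within 100 kb of each other. Wnt6 and Wnt10a on chromosome 1 were 6193 bases apart and were both tested, at 0.012 and -0.055. In the pairs Wnt9b with Wnt3 and Wnt3a with Wnt9a on chromosome 11, Wnt3 and Wnt9a alone were tested, and Wnt10b with Wnt1 on chromosome 15 held no tested gene.

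Of the 108 other genes of the pathway, none passed an adjusted p under 0.05 by limma among 102 tested, and 10 (9.80%) were counted at an unadjusted p under 0.05, 6 higher and 4 lower, against 10.4% of all tested genes. Their median log2 fold change was 0.0019. Among 18 tested genes for ligand processing and co-receptors, 3 were counted higher (Sostdc1, Wls and Reck) and 1 lower (Ryk). Sostdc1, a secreted inhibitor of BMP and Wnt signals that was also on the choroid plexus list, had log2 values of 1.30, 1.51 and 1.32 in control libraries and 2.34, 2.74 and 3.11 in libraries labelled MA. The groups were far apart, as for the other choroid plexus markers, with a log2 fold change of 1.35 (SE 0.19; limma adjusted p = 0.0570). Wls, which carries ligands to the cell surface, had log2 values of 2.72, 2.53 and 2.97 against 3.29, 3.21 and 3.01, without overlap, and a fold change of 0.43. Ryk, a Wnt receptor, was lower in each library labelled MA, at 3.74, 3.81 and 3.81 against 3.34, 3.32 and 3.68, with a fold change of -0.34. Among 26 tested destruction complex and cytoplasmic regulators, 2 were counted higher (Apc2 at 0.26 and Dact3 at 0.32) and 1 lower (Nkd1 at -0.32). Of 19 nuclear factors 1 was counted higher, the co-repressor gene Tle6 at 0.54, whose groups overlapped. Reck, a membrane protein that helps endothelial cells respond to Wnt7a and Wnt7b, stood at 0.35, also with overlap. Tle6 and Reck fall outside the rule for named genes and were named after their values had been seen. Among 14 tested target genes, 0 were counted higher and 2 lower, the growth factor Fgf9 at -0.31 and again Nkd1. Of 28 tested genes of the polarity and calcium branches, 1 was counted lower, Prickle1 at -0.29, a planar cell polarity protein. Limma's adjusted p-values were 0.265 for Prickle1, 0.339 for Fgf9, 0.357 for Wls and 0.380 for Ryk. Those of Apc2, Nkd1 and Dact3 were 0.437, 0.442 and 0.458.

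Promoter sequences from RefSeq (GRCm38.p6) were found for 39 of the 57 members, as 44 windows, and the 250 bases before each start were searched on both strands. The TCF/LEF core, spelled CTTTGAA or CTTTGAT or CTTTGTA or CTTTGTT, is the letters bound by the factors that β-catenin joins. It was present in 4 of 44 member windows (9.09%), those of Fzd7, Gsk3a, Wnt11 and Wnt5b, against 14.8% of all 32851 windows. The cAMP response element TGACGTCA was present in 0 member windows and in 1.55% of all windows, and neither motif's letters contain the other's. A match is a description of letters and not a binding site. The windows of Wnt11 and Fzd7 are shown because they are the members with separate groups that hold a match, with the core in capitals (on the reverse strand), for chr7:98834862-98835111, plus strand, and for chr1:59481897-59482146, plus strand.
Wnt11: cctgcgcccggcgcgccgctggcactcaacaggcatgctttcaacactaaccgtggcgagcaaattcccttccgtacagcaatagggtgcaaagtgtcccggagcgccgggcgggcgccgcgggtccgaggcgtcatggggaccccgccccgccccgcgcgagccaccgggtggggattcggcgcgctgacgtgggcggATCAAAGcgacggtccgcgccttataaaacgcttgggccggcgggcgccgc
Fzd7: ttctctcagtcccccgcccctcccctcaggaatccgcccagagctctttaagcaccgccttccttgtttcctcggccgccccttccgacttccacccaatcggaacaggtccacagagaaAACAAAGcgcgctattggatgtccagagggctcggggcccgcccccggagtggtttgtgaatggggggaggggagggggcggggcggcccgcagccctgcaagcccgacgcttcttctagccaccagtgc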

How the data were processed

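Hippocampal mRNA of 6 mice was measured by RNA sequencing. By the study's methods, FPKM values were made by the authors after Hisat2 alignment and featureCounts counting, whereas the submitters' processing notes name Bowtie 0.12.2 and the builds mm8 and mm9. Coordinates are from GENCODE M21 (GRCm38) and give location only. The deposited table holds log2 values, as 2 to the power of the value minus 1 summed to 488334 in control replicate 1, the size of an RPKM total, whereas a natural log would give 6568110. The offset of 1 was inferred. Genes of at least 0.5 RPKM in at least 3 libraries (13321) were tested with limma 3.58.1 in R 4.3.3 (trend on the mean level, Benjamini-Hochberg over all tested genes). Single values were tested by exact permutation (scipy 1.17.1). Members described per library were those with an unadjusted p under 0.05 or separate groups, the most abundant of each role, and Ctnnb1, Gsk3b, Axin2 and Lrp6. Of the other pathway genes, up to 8 with the smallest unadjusted p were named. Members and lists were chosen with earlier results of these data known. Kits differ between sources (RNA-Bee and NEB Next Ultra, or Qiagen and TruSeq).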

Additional observations from a re-analysis of the deposited data

How the results depend on the processing

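At an adjusted p under 0.05, the count of Wnt members was 0 under other pseudocounts, filters, centring, quantile normalization, no variance trend, the replicate block and, added after the data were seen, a minimum in all 6 libraries, and 3 with sample quality weights (Wnt11, Dkk3 and Wnt2, limma adjusted p = 0.0223, 0.0469 and 0.0471, all lower), which was 6.52% of members against 586 of all 13321 tested genes (4.40%). Over the alternatives that tested each gene, limma's adjusted p ranged from 0.0223 to 0.544 for Wnt11, from 0.0469 to 0.740 for Dkk3 and from 0.0471 to 0.779 for Wnt2. Leaving out 1 library gave 0 to 1, against 0 to 257 of all tested genes. Since the values already had a common distribution, centring and quantile normalization changed little and cannot show how the counts depend on normalization. At an unadjusted p under 0.05, 9 members were counted in the fit as reported, 20 with quality weights (16 higher and 4 lower, 43.5% against 26.3% of all genes), 3 of 15 tested (20% against 9.87%) with a minimum mean of 5 RPKM, and 8 to 18 (17.4 to 39.1% against 6.22 to 23.3%) when 1 library was left out, 18 being without MA replicate 3. The cause of the larger counts was not tested. The replicate numbers did not pair the libraries, with correlations of same-numbered deviations of -0.197, -0.242 and -0.337, and the replicate block gave counts of 0 and 8 (17.4% against 6.32% of all genes). No numbered library correlated best with its own number. Of the 17 members described per library, 12 kept their sign under every alternative that tested them. The other 5, with fold changes near 0, did not (Axin2, Ctnnb1, Fzd2, Gsk3b and Porcn). Of the 12, 10 were members whose groups did not overlap. Leaving out a library, or another pseudocount, filter or variance trend, could not turn the sign of those. Of 16 alternatives, 14 tested Ror1, Sfrp5 and Wnt11, and 15 tested Fzd2, Fzd7, Rspo3, Wnt2, Wnt3 and Wnt5a. Without the depth of each library, the counting error of low genes such as Ror1 and Sfrp5 cannot be given.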
